A study of Caenorhabditis elegans with 54 samples.

Results

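The first 6 h of exit from dauer were followed in animals at day 4 of dauer arrest. Of the 54 RNA-seq libraries of the series, the 6 that hold the labels D4 6 h and D4 0 h, both without UV, were compared, 3 per time. Every gene with at least 10 counts in at least 3 of these 6 libraries was kept, which gave 11765 of 19909 genes. The series as a whole followed daf-2(e1370) Caenorhabditis elegans larvae that had been dauers for 1, 4, 15 or 30 days (named D1, D4, D15, D30), before exit and 6 and 24 h into it, with L3 larvae for reference and a set of UV-exposed dauers. daf-2 encodes the only insulin/IGF-1 receptor of the worm, and e1370 is a temperature-sensitive allele, so that larvae grown at the restrictive temperature arrest as dauers. All libraries, including the 0 h and L3 ones, carry this allele. The 6 h group was D4 dauers moved to plates with fresh E. coli OP50 and to a lower temperature for 6 h, and the 0 h group was D4 dauers collected without that move. Food, temperature and transfer changed together, so their parts in any difference cannot be told apart. Each library was a pool of 8000 whole worms, described as a biological replicate, with n = 3 at each time.

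Dauer is an alternative larval stage that worms enter under crowding, heat or lack of food. Dauer larvae do not feed, seal the mouth, carry a thick cuticle with lateral ridges called alae, narrow the gut lumen, live largely on stored fat and hold germline and somatic divisions in arrest. On return to food, insulin-like and steroid hormone signalling end the arrest, the pharynx pumps again and the gut reopens, and the larva then molts to the last larval stage.

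The 6 h libraries held 2449359 to 2732737 estimated counts each, and the 0 h libraries 4070045 to 5978702. Pearson correlations of log2 CPM (counts scaled to the library size) over genes were 0.973 to 0.979 among the 6 h libraries, 0.982 to 0.985 among the 0 h libraries and 0.892 to 0.903 between the times. Adult genes were present at 0 h. The 6 yolk genes summed to 0.373, 168 and 0.366 CPM of the library total at 6 h, against 758, 562 and 2278 CPM at 0 h, and the 6 h value of 168 CPM came from a single library, replicate 2. The sperm genes were likewise lower, with 2.24, 7.83 and 2.56 CPM at 6 h, against 42.2, 41.8 and 95.3 CPM at 0 h. The summed pharynx markers differed by far less, at 2301, 2381 and 2417 CPM at 6 h, against 2251, 2286 and 2180 CPM at 0 h. Gene by gene, 5 of the 9 pharynx markers tested rose (55.6%) and 1 fell by the test given below, or 3 and 0 by DESeq2. Leaving out the library with the most yolk counts at each time, replicate 2 of 6 h and replicate 3 of 0 h, moved 29 of 138 list counts by over 1.5 times, and the moved counts of the lists described below are given beside them.

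At 6 h, 2868 genes were higher than at 0 h (24.4% of those tested) and 2652 were lower (22.5%), by edgeR's quasi-likelihood test with a Benjamini-Hochberg adjusted p under 0.05. The median log2 change of all tested genes was -0.0052, and the middle 50% of them lay between -0.33 and 0.38. Changes of at least 2-fold were found in 1081 genes that rose and 599 that fell. In CPM, the 3 libraries at 6 h all lay above the 3 at 0 h for 3097 genes (26.3%) and all below them for 3523 (29.9%). These CPM were scaled over the 39 libraries without UV, and the test over these 6. A fit of the 39 libraries gave a lower median log2 change of the same genes, -0.034, so the 2 splits are not on the same scale. The X chromosome held 17.9% of the genes that rose, 11.9% of those that fell and 14.8% of all tested, and median gene length was 2711, 2581.5 and 2707 bp in the same order of sets. The shares of calls above are the background against which the gene lists below are read.

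The largest rise belonged to fmo-2, which encodes a flavin-containing monooxygenase (chromosome IV, 10682524 to 10684367, plus strand on WBcel235). Its level was 166, 99.2 and 127 CPM at 6 h, against 0.42, 0.89 and 0.446 CPM at 0 h (log2 change 7.81, standard error 0.30, adjusted p = 1.32e-09). The gene was close to undetected in D4 dauers and the groups lay far apart. Of the other 11 genes with the largest rises, 6 encode proteins of the cuticle or of the extracellular matrix. The collagen gene col-43 stood at 44.5, 22.8 and 38.8 CPM at 6 h, against 1.68, 1.56 and 0.149 CPM at 0 h (log2 change 5.12, and 4.45 without replicate 3 of 0 h), and the collagens col-36 and col-158 changed by 4.66 and 4.41 on the log2 scale. fkb-5, a peptidyl-prolyl isomerase of the FK506-binding family, was measured at 33.2, 40 and 30.4 CPM at 6 h, against 0.63, 1.56 and 1.04 CPM at 0 h (log2 change 5.01, standard error 0.25, adjusted p = 1.04e-08). dpy-6, which encodes a mucin-like protein needed for body shape, had 52.4, 52.8 and 47.3 CPM at 6 h, against 2.73, 3.56 and 2.97 CPM at 0 h (log2 change 4.06). The others were the cuticlin-like cutl-14 (4.14), sym-1 (4.17), which encodes a secreted leucine-rich repeat protein, the cadherin cdh-7 (3.98), the proton/myo-inositol transporter hmit-1.1 (4.06, and 4.69 without replicate 3 of 0 h) and the C-type lectins clec-42 (4.6) and clec-52 (3.93), all as log2 changes. These genes were chosen among those without overlap of libraries between the times. The nuclear anchor gene anc-1, among the genes with the most counts in these libraries, rose as well, at 13645, 13857 and 13869 CPM at 6 h, against 8651, 9057 and 8576 CPM at 0 h (log2 change 0.69, standard error 0.028, adjusted p = 2.24e-09).

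**Figure D1:**
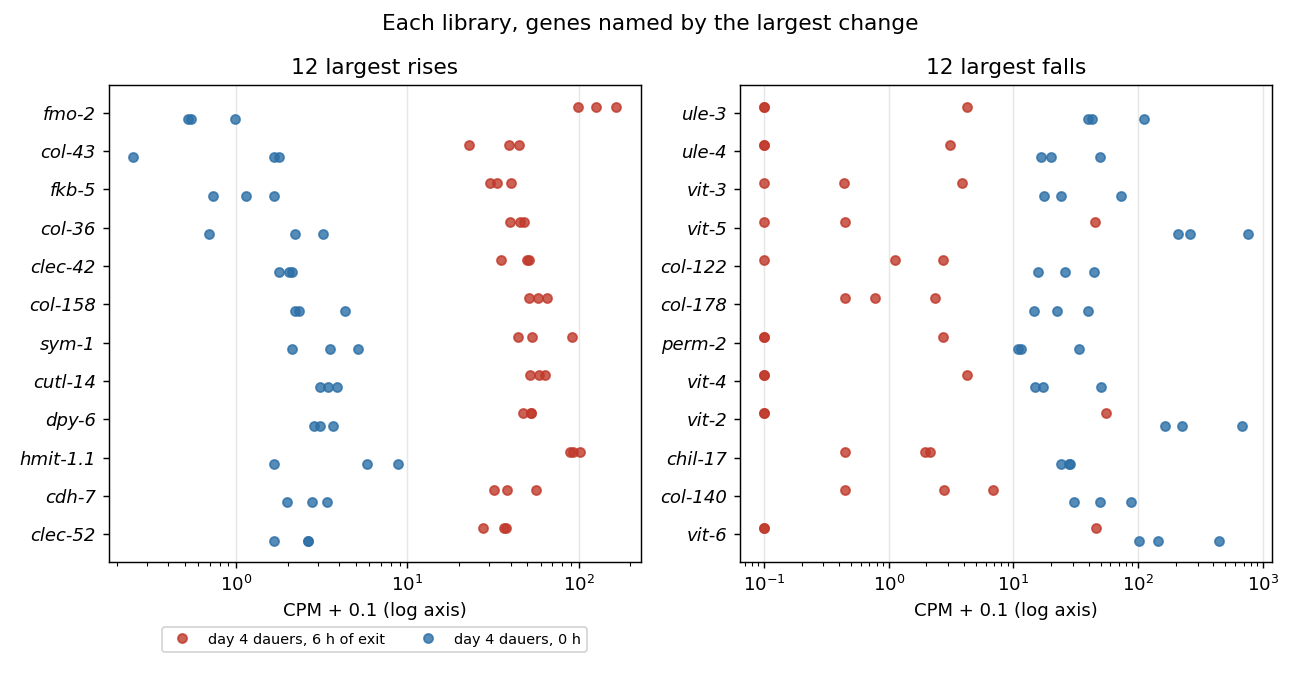
CPM plus 0.1 on a log axis for the 12 genes with the largest rises (left) and the 12 with the largest falls (right), with 1 point per library, red for 6 h and blue for 0 h of exit from D4. The red points of fmo-2 lie between 99.2 and 166 CPM and its blue points below 1 CPM, and among the falls 1 red point, replicate 2, often lies well to the right of the other 2.

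The largest falls were those of genes expressed in adults and eggs. vit-5, which encodes a yolk protein made in the adult hermaphrodite gut, had 0.343, 44.9 and 0 CPM at 6 h, against 261, 207 and 754 CPM at 0 h (log2 change -4.82, standard error 0.76, adjusted p = 0.00022). Nearly all of its 6 h counts came from replicate 2, and without replicate 3 of 0 h its log2 change was -4.01. Vitellogenins vit-2, vit-3, vit-4 and vit-6 were also among the 12 largest falls, and all 6 vit genes fell (median log2 change -4.62). By DESeq2 the adjusted p was 0.238 for vit-2, 0.0708 for vit-4, 0.0789 for vit-5 and 0.28 for vit-6, so that 2 of 6 were called, and without the 2 libraries with the most yolk counts none of the 6 reached the count minimum. The uterine lumen gene ule-3 had 0, 4.12 and 0 CPM at 6 h, against 42.7, 39.6 and 111 CPM at 0 h, and ule-4 and the eggshell gene perm-2 likewise had counts at 6 h in replicate 2 alone. The collagens col-122, col-140 and col-178 had log2 changes of -4.58, -4.13 and -4.57, and of -5.75, -5.18 and -5.6 without replicate 2 of 6 h. chil-17, a chitinase-like gene, had 0 h libraries close to each other, with 0.343, 1.87 and 2.03 CPM at 6 h, against 27.9, 28.3 and 23.9 CPM at 0 h (log2 change -4.18, standard error 0.29, adjusted p = 1.81e-07).

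Genes of the gut and of digestion rose in most lists. Of the 10 intestine markers, 7 rose and 1 fell (median log2 change 0.96), and their summed level was 3665, 3857 and 3489 CPM at 6 h, against 1949, 1727 and 1894 CPM at 0 h. In bulk libraries more cells of a type and more RNA per cell cannot be told apart. act-5, the actin of the gut microvilli, had 892, 924 and 850.3 CPM at 6 h, against 248, 225 and 233 CPM at 0 h (log2 change 1.95, standard error 0.057, adjusted p = 3.98e-10). The 3 libraries of each time lay close together and the times did not overlap. pept-1, the oligopeptide transporter of the gut brush border, stood at 221, 219 and 218 CPM at 6 h, against 90.4, 83.9 and 74 CPM at 0 h (log2 change 1.44). Of the 14 brush border and gut junction genes 9 rose and 2 fell, and 1 fell without replicate 1 of 0 h, without replicate 1 or 2 of 6 h, or without both libraries with the most yolk counts. The rises included the intermediate filament genes ifb-2 (0.83), ifc-2 (0.56) and ifp-1 (1.47), and the falls the junction gene dlg-1 (-0.29), as log2 changes. elt-2, the GATA factor of the intestine, was the 1 marker that fell (log2 change -0.52, standard error 0.10, adjusted p = 0.0013), and without replicate 2 of 6 h, or both libraries with the most yolk counts, 2 fell.

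Lysosomal and secreted hydrolases moved with the gut genes. Of the 8 cathepsin B-like proteases 5 rose and 1 fell (median 1.77). cpr-1 was at 249, 296 and 193 CPM at 6 h, against 23.7, 21.6 and 35.7 CPM at 0 h (log2 change 3.18, standard error 0.18, adjusted p = 3.16e-08), and cpr-5 was at 204, 245 and 220.5 CPM at 6 h, against 34.5, 22.3 and 29.3 CPM at 0 h (log2 change 2.98, standard error 0.12, adjusted p = 2.24e-09). Both were more than 7 times as high at 6 h as at 0 h, with no overlap, while cpr-6 fell (-0.33). Of the 11 aspartyl proteases tested, of 17 named, 9 rose, among them asp-17 (2.72), asp-1 (1.09) and asp-3 (1.09), and asp-9 fell (-0.79). Of the 9 lysozymes tested, of 16 named, 7 rose and 2 fell, and 1 fell by DESeq2, in a fit of 39 libraries, and without replicate 2 of 0 h or replicate 1 or 3 of 6 h. lys-4, which encodes a lysozyme, an enzyme that cuts bacterial cell walls, had 78.1, 71.1 and 57.1 CPM at 6 h, against 3.36, 2 and 9.95 CPM at 0 h (log2 change 3.63, standard error 0.31, adjusted p = 1.03e-06). Replicate 3 of 0 h was the highest of the dauer libraries, and without it the log2 change was 4.67. lys-1 and lys-8 rose by 2.24 and 1.99 on the log2 scale and lys-3 fell (-0.89). The saposin-like proteins, small membrane-acting peptides some of which lyse bacteria, split into 11 that rose and 4 that fell of 22 tested, with spp-3 at 2.13 and spp-11 at -2.73, and 2 fell by DESeq2. Among C-type lectins, 36 of the 67 tested, of 237 named, rose and 9 fell. Without replicate 2 or 3 of 0 h, 5 and 4 of 63 fell, and without both libraries with the most yolk counts 5 fell. The vacuolar ATPase, which acidifies lysosomes and the gut lumen, had 17 of 21 subunit genes higher and 2 lower (median 0.49). vha-12 was at 203, 231 and 214 CPM at 6 h, against 108, 103 and 96.3 CPM at 0 h (log2 change 1.11, standard error 0.073, adjusted p = 1.06e-07), and the 2 that fell were vha-7 (-0.68) and vha-18 (-0.82).

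Fatty acid synthesis had the highest share of rises of any list with over 20 genes tested. Of its 22 genes tested, of 25 named, 20 rose and 0 fell by edgeR (1 fell at an unadjusted p under 0.05, and also without replicate 2 of either time or without both libraries with the most yolk counts), and DESeq2 called 17 higher and 0 lower. The median log2 change was 1.02. fat-6, a stearoyl-CoA desaturase, had 724, 658 and 677 CPM at 6 h, against 143, 125 and 168 CPM at 0 h (log2 change 2.26, standard error 0.093, adjusted p = 2.33e-09). fat-5, the palmitoyl-CoA desaturase, had 223, 203 and 225 CPM at 6 h, against 36.1, 35.6 and 49 CPM at 0 h (log2 change 2.44), and fat-3, the delta-6 desaturase, had 185, 218 and 176 CPM at 6 h, against 40.6, 32.5 and 50.7 CPM at 0 h (log2 change 2.23). The desaturases were thus 4 to 6 times as high at 6 h in mean CPM, with no overlap of libraries. fasn-1, the fatty acid synthase, changed by 1.28 (adjusted p = 3.52e-08).

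Genes for breaking fat down rose in the same 6 h. In fatty acid oxidation 35 of 51 genes tested rose and 7 fell (median 0.72), with 12 falls without a filter on low counts. acox-1.5, a peroxisomal acyl-CoA oxidase, had 230.2, 255 and 248 CPM at 6 h, against 15.55, 10.7 and 21.8 CPM at 0 h (log2 change 3.91, standard error 0.15, adjusted p = 1.61e-09). cpt-1, which encodes a carnitine palmitoyltransferase that loads fatty acids into mitochondria, had 786, 801 and 769 CPM at 6 h, against 197, 202 and 223 CPM at 0 h (log2 change 1.95). cpt-3 (3.02) and ech-1.2 (1.44), a subunit of the mitochondrial trifunctional enzyme, also rose, while acs-9 (-2.06), an acyl-CoA synthetase, and cpt-6 (-1.56) fell. Of 9 lipases tested, 3 rose and 3 fell (1 fell without replicate 3 of 0 h), with lipl-1, a lysosomal lipase gene, at 32.9, 31.8 and 17.9 CPM at 6 h, against 1.26, 0.668 and 2.23 CPM at 0 h (log2 change 4.21). Among the 15 lipid-binding proteins tested, 11 rose and 3 fell, with lbp-6 (1.39) and far-8 (2.14) among the rises and far-7 (-0.89) among the falls.

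In the TCA and glyoxylate cycles 15 of 28 genes rose and 1 fell (median 0.23), and 2 fell without replicate 3 of 0 h, replicate 2 of 6 h or both. icl-1, the bifunctional glyoxylate enzyme that lets worms make sugar from fat, stood at 1415, 1658 and 1692 CPM at 6 h, against 439, 422 and 477 CPM at 0 h (log2 change 1.86, standard error 0.072, adjusted p = 1.58e-09). idh-1 (1.94), suca-1 (1.14) and mdh-1 (0.79) rose and sdha-2 fell (-0.79). Glycolysis and gluconeogenesis had 13 of 22 genes higher and 2 lower. The rises held genes of both directions of the pathway, with ldh-1 (1.12) and aldo-1 (0.59) beside fbp-1 (1.07) and pck-2 (0.7), and the falls were the glyceraldehyde-3-phosphate dehydrogenases gpd-1 (-0.88) and gpd-4 (-0.93). Of the 50 respiratory chain genes tested 13 rose and 10 fell, close to the background in both directions. Without replicate 1 or 2 of 0 h, or replicate 2 of 6 h, 6 rose, and 5 did without both libraries with the most yolk counts and 7 by DESeq2.

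Methionine, folate and propionate metabolism, named the 1-carbon list, had 14 of 24 genes higher and 3 lower (median 0.60). pmt-2, a methyltransferase of phosphatidylcholine synthesis, stood at 164, 172 and 169.8 CPM at 6 h, against 29.4, 24 and 36.2 CPM at 0 h (log2 change 2.5, standard error 0.12, adjusted p = 5.81e-09). sams-1, the S-adenosylmethionine synthetase, had 429, 409.8 and 414 CPM at 6 h, against 139, 113 and 139 CPM at 0 h (log2 change 1.71), and cbs-1 and cth-2, of the path that turns homocysteine into cysteine, changed by 1.89 and 1.6. All of these were separated between the times. The breakdown of arginine, tyrosine and tryptophan had 9 of 11 genes higher and 1 lower. The rises included kmo-1 (2.23), kynu-1 (1.32), pah-1 (0.98) and hpd-1 (0.96) of the kynurenine and tyrosine paths. The fall was tatn-1 (-0.93), the tyrosine aminotransferase.

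**Figure D2:**
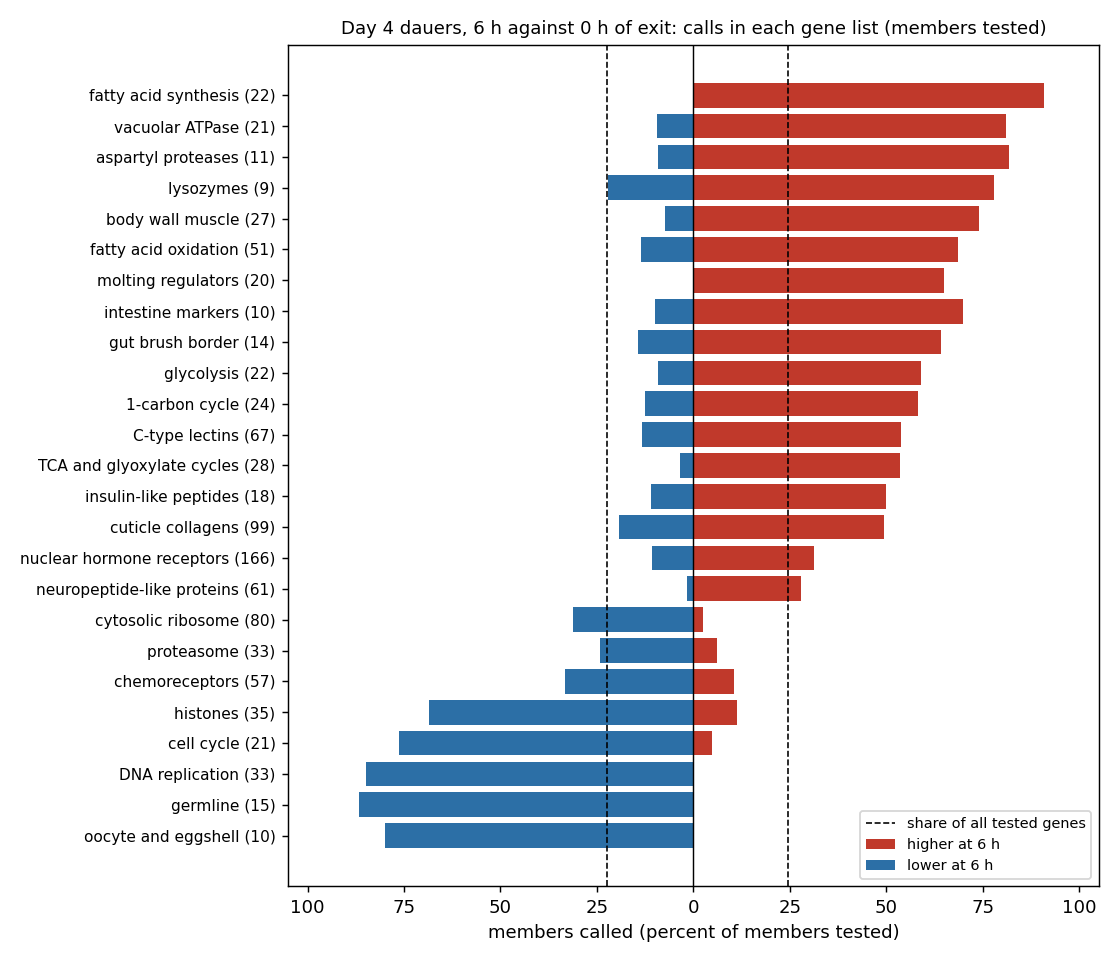
Percent of tested members called higher (red, to the right) and lower (blue, to the left) at 6 h against 0 h of exit from D4 in 25 gene lists, with the number tested in parentheses. Dashed lines mark the shares over all tested genes, 24.4% higher and 22.5% lower, and fatty acid synthesis reaches furthest right while DNA replication and germline genes have no red bar.

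Cuticle and molting genes rose in number. Of the 99 cuticle collagens tested, of 176 named, 49 rose and 19 fell (median 0.68), but their summed level overlapped between the times, at 2151, 2637 and 2167 CPM at 6 h, against 1777, 1757 and 2620 CPM at 0 h. Leaving out replicate 2 of 6 h left 31 collagens higher, and leaving out replicate 1 or 3 of 0 h left 12 of 89 or 11 of 87 lower. Without both libraries with the most yolk counts 32 were higher and 11 lower. dpy-8, a collagen needed for body length, had 18.8, 27.7 and 19.6 CPM at 6 h, against 1.68, 1.56 and 1.04 CPM at 0 h (log2 change 3.99, standard error 0.27, adjusted p = 1.66e-07), and rol-8 had 39.4, 32.6 and 29.7 CPM at 6 h, against 1.89, 2.23 and 2.82 CPM at 0 h (log2 change 3.85). col-2, a collagen used in the dauer cuticle, had 38, 80.8 and 68.2 CPM at 6 h, against 0.841, 10.5 and 8.32 CPM at 0 h (log2 change 3.25, standard error 0.40, adjusted p = 2.82e-05), and col-40 changed by 1.82. The levels of both were low at 0 h, and 1 of the 0 h libraries of col-2 lay well below the other 2. Collagen and vitellogenin genes have near-identical copies between which the quantification divides shared reads, so their values are less certain 1 by 1.

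Of the 20 molting regulators tested 13 rose and 0 fell by edgeR (15 and 0 at an unadjusted p under 0.05, and 12 and 0 by DESeq2). mlt-11, a Kunitz-type protease inhibitor of the molt, had 69.6, 109 and 59.8 CPM at 6 h, against 12, 8.68 and 11.3 CPM at 0 h (log2 change 2.91, standard error 0.22, adjusted p = 3.61e-07). ptr-4, a patched-related membrane protein that acts in the molting epidermis, had 70.6, 99.9 and 55 CPM at 6 h, against 6.3, 2.23 and 6.09 CPM at 0 h (log2 change 3.91, standard error 0.27, adjusted p = 1.96e-07), and acn-1, an angiotensin-converting enzyme relative without a working catalytic site, changed by 2.37. noah-1, a zona pellucida domain protein of the matrix laid down before a new cuticle, had 178, 239.5 and 148 CPM at 6 h, against 14.1, 12.7 and 16.8 CPM at 0 h (log2 change 3.7, standard error 0.18, adjusted p = 8.32e-09). In all of these the 6 h libraries stood clear of the 0 h ones, and replicate 2 of 6 h was the highest in mlt-11, ptr-4 and noah-1. Of the 39 hedgehog-related and patched-related genes tested 15 rose and 7 fell, including ptr-10 (3.35) and ptr-22 (1.44) among the rises and grd-4 (-2.71) and ptr-13 (-1.01) among the falls.

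Body wall muscle genes rose as a list, with 20 of 27 higher and 2 lower (median 0.53, and 1 lower by DESeq2 and without replicate 3 of 0 h, replicate 2 of 6 h or both), and a summed level of 9101, 8814 and 8837 CPM at 6 h, against 5777, 5655 and 6139 CPM at 0 h. unc-22, the giant kinase twitchin, had 1153, 1159.5 and 1155 CPM at 6 h, against 533, 560.0 and 613 CPM at 0 h (log2 change 1.05, standard error 0.057, adjusted p = 2.11e-08). mlc-1, a myosin light chain (1.27), ttn-1, a titin-like gene (0.67), and unc-89, which encodes obscurin (0.8), rose as well. In the other direction, myo-3, the heavy chain at the centre of the thick filament, had 201, 193 and 179 CPM at 6 h, against 368, 401 and 375 CPM at 0 h (log2 change -0.97, standard error 0.064, adjusted p = 1.1e-07). Among neuronal markers, 7 of 22 were higher and 1 lower, with a summed level of 2583, 2497 and 2689 CPM at 6 h, against 2589, 2502 and 2371 CPM at 0 h. The 1 lower was lost by DESeq2 and without replicate 1 of 6 h, and without both libraries with the most yolk counts 4 were higher and 0 lower.

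Signals that govern dauer were covered gene by gene. In the dauer steroid hormone pathway, 4 of 8 genes tested rose and 1, the receptor gene daf-12, fell. daf-9, the cytochrome P450 that completes dafachronic acid, the hormone that ends dauer, lies at chromosome X, 6196927 to 6200823, plus strand on WBcel235 and had 51.4, 58.4 and 53.7 CPM at 6 h, against 14.3, 9.13 and 14.4 CPM at 0 h (log2 change 2.11, standard error 0.15, adjusted p = 2.32e-07). The lowest 6 h library was more than 3 times the highest 0 h library. daf-36, the oxygenase that acts first in that path, had 17.8, 16.8 and 14.9 CPM at 6 h, against 4.41, 4.45 and 5.35 CPM at 0 h (log2 change 1.81, standard error 0.20, adjusted p = 1.06e-05), and dhs-16, a dehydrogenase of the path, changed by 1.75. daf-12, the nuclear receptor of the hormone, fell slightly (log2 change -0.28, standard error 0.09, adjusted p = 0.0218), a call that was lost without replicate 1 of 0 h (adjusted p = 0.0627) or replicate 2 of 6 h (0.0721). daf-7, the TGF-beta ligand that food sustains, fell to 16.8, 17.6 and 19.2 CPM at 6 h, against 24.8, 26 and 22.6 CPM at 0 h (log2 change -0.42, standard error 0.13, adjusted p = 0.0208), and this call was lost without replicate 1 of 6 h (adjusted p = 0.0763) and by DESeq2 (0.125).

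In the insulin path 3 of 14 genes rose and 6 fell. daf-2 itself fell (log2 change -0.33, standard error 0.052, adjusted p = 0.000238), with 387, 362 and 381 CPM at 6 h, against 498, 481 and 468 CPM at 0 h. The adaptor ist-1 (-1.13) and the kinase akt-1 (-1.05) fell further and akt-2 fell (-0.49), while the kinases sgk-1 (0.72) and pdk-1 (0.45) rose. daf-16, the FOXO factor under insulin control, had 90.8, 82.7 and 116 CPM at 6 h, against 82.2, 71.7 and 64.5 CPM at 0 h (log2 change 0.45, standard error 0.12, adjusted p = 0.00862), and without replicate 3 of 6 h the call was lost (log2 change 0.29, adjusted p = 0.0591). Of the 18 insulin-like peptides tested, of 39 named, 9 rose and 2 fell. ins-10 had 13.7, 12.7 and 12.5 CPM at 6 h, against 1.68, 1.56 and 1.78 CPM at 0 h (log2 change 2.95, standard error 0.25, adjusted p = 1.06e-06), and ins-35 (2.14), ins-27 (1.77) and ins-30 (1.29) rose. Without any 1 of the 0 h libraries 16 were tested and neither of the 2 fell. Without the 2 libraries with the most yolk counts 4 insulin-like peptides rose. daf-28 was below the count minimum, at 11, 3 and 7 counts at 6 h, against 1, 0 and 3 counts at 0 h.

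Genes known as targets that DAF-16 raises in daf-2 mutants split, with 4 of 12 higher and 5 lower, and 2 higher without both libraries with the most yolk counts, where their median, -0.034 with all 6 libraries, was 0.0465. hsp-12.6, a small heat shock protein abundant in dauers, had the smallest adjusted p of the named falls, at 137, 119.02 and 129 CPM at 6 h, against 696, 706 and 656 CPM at 0 h (log2 change -2.39, standard error 0.063, adjusted p = 1.82e-10). mtl-1, a metallothionein, fell to 322, 336 and 326 CPM at 6 h, against 622, 635 and 600.0 CPM at 0 h (log2 change -0.89). ftn-1, a ferritin (-0.9), and tps-2, a trehalose-6-phosphate synthase (-0.61), also fell, while the peroxisomal catalase ctl-2 (0.9) rose. sod-3, the mitochondrial manganese superoxide dismutase, fell (log2 change -0.34, standard error 0.10, adjusted p = 0.0145), but not without replicate 1 of 6 h (adjusted p = 0.0753). lea-1, a protein tied to tolerance of drying, was called higher (log2 change 0.3, standard error 0.069, adjusted p = 0.00347) although the libraries of the times touched, at 1374, 1108 and 1355 CPM at 6 h, against 1038, 1108 and 1045 CPM at 0 h.

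Chaperones moved in both directions. Of the 8 genes tested in the list of large heat shock proteins, which includes the heat shock factor hsf-1, 5 rose and 1 fell (median 0.86). hsp-110, a nucleotide exchange factor for Hsp70, had 566, 579 and 576 CPM at 6 h, against 237, 234 and 226 CPM at 0 h (log2 change 1.34, standard error 0.051, adjusted p = 1.32e-09). The constitutive Hsp70 hsp-1 (0.85) and the mitochondrial hsp-60 (0.87) rose, and the heat-inducible hsp-70 fell (-0.79). hsp-90, the cytosolic Hsp90, stood in the list under its older symbol daf-21, which matched no row, so it is not in these counts. It fell to 9929.5, 9409.5 and 9564 CPM at 6 h, against 12265, 13570.0 and 12220.0 CPM at 0 h (log2 change -0.37). Of the 11 small heat shock proteins tested 6 rose and 3 fell, and the near-identical hsp-16 genes went both ways, with hsp-16.2 at -1.94 and hsp-16.1 at 1.05. The summed level of the 13 in the list was lower, at 1131, 968 and 1068 CPM at 6 h, against 1645, 1667 and 1579 CPM at 0 h. In the secretory path 11 of 18 genes rose and 5 fell. The 3 translocon subunits sec-61.A (1.57), sec-61.B (1.43) and sec-61.G (1.18) rose with the disulfide isomerase pdi-2 (0.69), while the calcium-binding chaperones crt-1 (-0.38) and cnx-1 (-0.52) fell.

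Ribosomal protein genes changed little and mostly downward. Of the 80 cytosolic ones tested 2 rose and 25 fell (31.2%, against 22.5% of all genes), and the median was -0.094. Their summed level was 120000, 124800 and 119700 CPM at 6 h, against 133300, 138900 and 135400 CPM at 0 h. rpl-10 had 2499, 2655 and 2525 CPM at 6 h, against 3036, 3234 and 3166 CPM at 0 h (log2 change -0.27, standard error 0.04, adjusted p = 0.000149). The 2 rises were 0 by DESeq2, without a filter, in a fit of 39 libraries, without any 1 of the 0 h libraries, without replicate 2 of 6 h and without both libraries with the most yolk counts, and 1 without replicate 3 of 6 h. The count that fell ran between 10, without replicate 1 of 6 h, and 40, without replicate 1 of 0 h. It was 15 without replicate 3 of 6 h and 38 without replicate 2 of 6 h, 42 without a filter on low counts and 46 in a fit of all 39 libraries without UV. The elongation factors eef-2 and eef-1A.1 did not pass the test (log2 changes -0.0094 and 0.082), although eef-1A.1 was called without replicate 3 of 6 h (adjusted p = 0.0489). Of the 40 translation factors 17 rose and 7 fell, with eif-1.A (0.83) and eif-3.C (0.75) among the rises. Of the 33 proteasome subunits 2 rose (6.06%, against 24.4% of all genes). The 8 that fell (24.2%) were close to the 22.5% of all genes, with rpn-8 at -0.41 and rpn-11 at -0.41, both subunits of the lid. The rises were 1 by DESeq2 and without replicate 2 or 3 of 0 h or replicate 1 or 3 of 6 h, and 0 without replicate 1 of 0 h or both libraries with the most yolk counts, and 14 fell in a fit of 39 libraries.

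Genes of xenobiotic metabolism were mixed. Of the glutathione S-transferases 19 of 35 tested rose and 6 fell, and of the UDP-glucuronosyltransferases 27 of 54 rose and 12 fell. gst-26 had 25.7, 16.1 and 17.2 CPM at 6 h, against 1.26, 0.668 and 1.04 CPM at 0 h (log2 change 4.29, standard error 0.31, adjusted p = 2.56e-07), and ugt-63 (3.71) and ugt-7 (3.3) rose while ugt-27 fell (-2.9). Cytochromes P450 were called in both directions about equally, with 16 of 51 higher and 18 lower, from cyp-36A1 (2.58) to cyp-14A1 (-2.94). Of the 13 metal-handling genes 7 rose and 5 fell. cdr-1, a cadmium-responsive gene, had 17.5, 12.7 and 9.79 CPM at 6 h, against 1.05, 0.445 and 0.743 CPM at 0 h (log2 change 4.12, standard error 0.36, adjusted p = 1.52e-06) and mtl-2 rose (1.58), against the fall of mtl-1 and of the metal transporter smf-2 (-2.33).

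The share of calls differed among the lists of the nervous system and of timing. Neuropeptide-like genes rose in 17 of 61 and fell in 1 (0 by DESeq2 or without replicate 2 of 6 h, and 2 without replicate 3 of either time), led by nlp-26 with 12, 10.5 and 13.2 CPM at 6 h, against 0.841, 0.89 and 0.297 CPM at 0 h (log2 change 4.2, standard error 0.35, adjusted p = 9.49e-07). nlp-29, nlp-31 and nlp-33, antimicrobial peptides of the epidermis, changed by 1.64, 1.74 and 2.28. FMRFamide-like peptides rose in 5 of 30 and fell in 1. They rose in 3 by DESeq2, without replicate 1 of 6 h or without both libraries with the most yolk counts. The fall was 0 by DESeq2 and without replicate 1 or 2 of 0 h or replicate 2 or 3 of 6 h, and 2 without replicate 3 of 0 h or replicate 1 of 6 h. Chemoreceptors reached the count minimum in 57 of 1300 cases, of which 6 rose and 19 fell, with srd-66 at 3.72 and srsx-28 at -3.72. With any 1 of the 0 h libraries left out, 32 to 34 reached the minimum and 5 to 7 fell. DESeq2 called 10 lower, and without both libraries with the most yolk counts 6 fell. Of 9 heterochronic genes tested, which time larval stages, 5 rose, with lin-41 (0.62) and lin-14 (0.6), and 1 fell. By DESeq2, without any 1 of the 0 h libraries, without replicate 1 of 6 h and without both libraries with the most yolk counts 3 rose, and the fall was lost without replicate 1 of 0 h or replicate 2 of 6 h. Among the 166 nuclear hormone receptors tested 52 rose and 18 fell, and DESeq2 called 34 higher. The DNA repair genes csb-1 (log2 change 0.085, adjusted p = 0.672) and xpa-1 (0.089, 0.656) did not pass the test and xpc-1 fell (log2 change -0.48, standard error 0.076, adjusted p = 0.000244).

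Genes of dividing and germline cells fell. Of 33 DNA replication genes 28 fell and 0 rose by edgeR (29 and 0 at an unadjusted p under 0.05, and 21 and 0 by DESeq2), with a median of -0.58. mcm-4, a subunit of the replicative helicase, had 68.9, 66.6 and 72.9 CPM at 6 h, against 117, 119.8 and 114 CPM at 0 h (log2 change -0.72, standard error 0.072, adjusted p = 4.24e-06). pri-2, a primase subunit (-1.01), dut-1, the dUTPase (-0.68), and pole-1, a DNA polymerase epsilon subunit (-0.61), fell as well. Of 21 cell cycle genes 1 rose and 16 fell, the falls including the mitotic cyclins cyb-1 (-0.91) and cyb-3 (-0.83) and the checkpoint kinase bub-1 (-0.63). The 1 rise was lost by DESeq2, without replicate 2 or 3 of 0 h, without replicate 1 or 2 of 6 h and without both libraries with the most yolk counts. Of the 35 histone genes tested, of 51 named, 24 fell and 4 rose (median -0.99). his-46, a histone H4 gene, had 167, 187 and 176 CPM at 6 h, against 459, 425 and 443 CPM at 0 h (log2 change -1.29, standard error 0.063, adjusted p = 9.64e-09), and his-64 (-1.1), his-62 (-1.1) and his-47 (-1.14) also fell. The rises included his-71 (0.73), which encodes the replacement variant H3.3. Histone genes of 1 class are near-identical in coding sequence, so their counts are uncertain 1 by 1.

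Of the 15 germline genes tested, of 17 named, 13 fell and 0 rose by edgeR (13 and 0 at an unadjusted p under 0.05, and 13 and 0 by DESeq2). glh-1, a Vasa-type helicase of germ granules, had 111.7, 122 and 116 CPM at 6 h, against 190.4, 189 and 177 CPM at 0 h (log2 change -0.64, standard error 0.067, adjusted p = 6.49e-06). htp-3, of the meiotic chromosome axis (-0.87), hrde-1, a nuclear Argonaute (-0.62), and pgl-1, a germ granule protein (-0.56), fell as well. Of the 10 oocyte and eggshell genes 8 fell and 0 rose (8 and 0 unadjusted and by DESeq2), with rme-2, the yolk receptor (-1.76), and pos-1 (-1.61). Leaving out 1 of the 0 h libraries left 7 oocyte genes tested and 4 or 5 lower, and 4 were lower without both libraries with the most yolk counts.

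The genes of adults at 0 h moved with these falls. The oocyte list summed to 49.6, 69.5 and 55.3 CPM at 6 h, against 190, 149 and 323 CPM at 0 h. The germline list summed to 921, 886 and 931.5 CPM at 6 h, against 1388, 1290.0 and 1412 CPM at 0 h, the DNA replication list to 1443, 1445 and 1461 CPM against 2064, 2041 and 2154 CPM, and the histones to 2038, 2083 and 1923 CPM against 3168, 3171 and 3363 CPM. The D4 0 h libraries without UV stood above 0 h libraries from other ages for some of these sums. In D15 dauers at 0 h germline genes summed to 875 to 936 CPM and replication genes to 1148 to 1185 CPM, and in D30 dauers at 0 h to 1014 to 1072 and 1291 to 1334 CPM. Histones summed to 3505 to 3649 CPM in D1 dauers at 0 h, above D4. Without the 2 libraries with the most yolk counts, 13 germline, 23 replication, 13 cell cycle and 21 histone genes fell. The part of adult material in the falls was not tested.

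**Figure D3:**
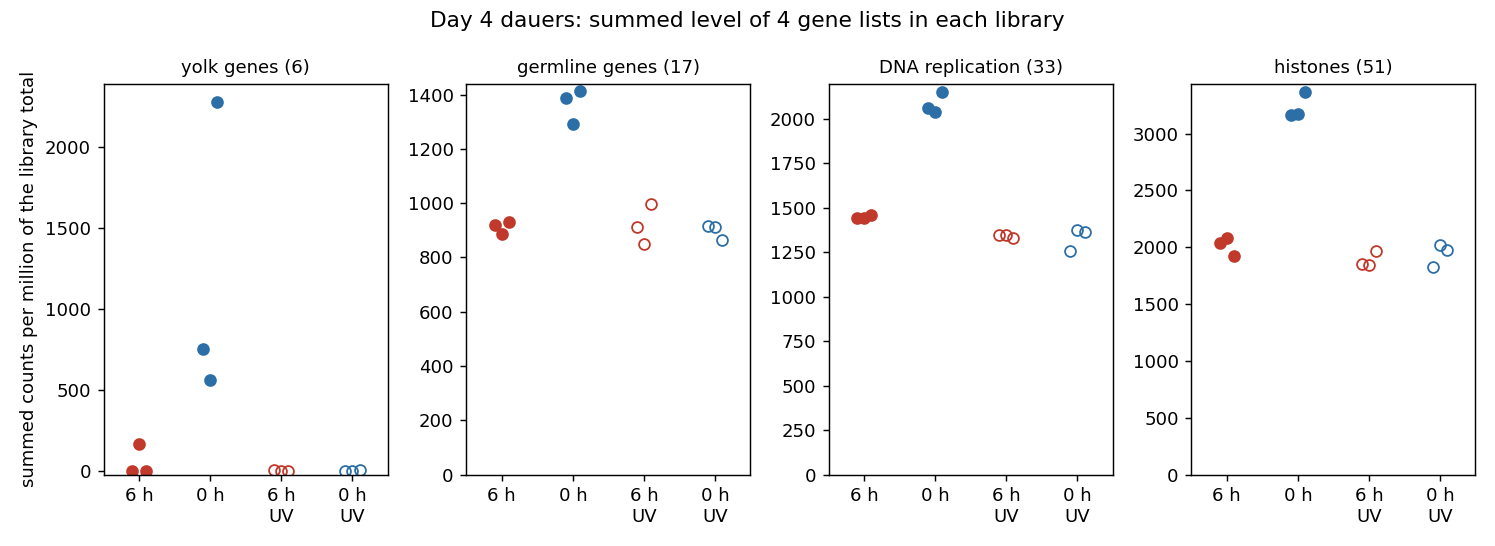
Summed CPM of the library total for the yolk, germline, DNA replication and histone lists in each D4 library, from left to right 6 h and 0 h without UV (filled points) and 6 h and 0 h with UV (open points). The 0 h points without UV lie above all other groups in each panel, for instance 1290.0 to 1412 CPM for germline genes, against 863 to 916 CPM at 0 h with UV.

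The same 6 h was also sampled in D4 dauers that had been exposed to UV earlier in dauer, in 6 libraries of their own. There 1342 of 9523 genes were called (14.1%), with 0 h libraries of 670316 to 856869 counts. The number was 848 without replicate 1 of 0 h, and 812 or 792 without replicate 1 or 2 of 6 h. Of the genes that rose without UV and were tested in both, 499 also rose with UV, 19.1% of the D4 rises and 82.8% of the UV rises. Of those that fell, 273 also fell with UV, 12.64% of the D4 falls and 37.8% of the UV falls. Over all genes tested in both, 6.36% rose and 7.62% fell with UV. In the opposite direction, 201 of the D4 rises (7.68%) fell with UV and 13 of the D4 falls (0.602%) rose. fmo-2 rose with UV too (log2 change 3.7, adjusted p = 2.04e-06). Several lists had other counts there. None of 31 replication genes tested was called by edgeR or DESeq2 (1 rose and 0 fell at an unadjusted p under 0.05), their median was -0.0048, and 1 of 14 germline genes rose. In the UV libraries replication genes summed to 1348, 1348 and 1332 CPM at 6 h, against 1259, 1373 and 1364 CPM at 0 h. Of the 74 collagens tested both with and without UV, 5 rose and 45 fell with UV. In the UV libraries the 175 collagens of the list summed to 2417, 3368 and 3700.0 CPM at 6 h, against 8589, 7323 and 5692 CPM at 0 h. The difference between the windows with and without UV was not tested.

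The question of whether D4 dauers leave arrest as dauers of other ages do was put to the same 6 h windows of D1, D15 and D30, which share no library with D4. From D1, 5908 of 13383 genes were called (44.1%), from D15 7290 of 12454 (58.5%), and from D30 3543 of 12475 (28.4%). The libraries of these windows held 5455932 to 10558200 counts each, against 2449359 to 5978702 in D4. The part of this unlike depth in the calls, shares and differences was not tested. Of the genes that rose from D4 and were tested in both, 37.1% rose from D1 as well, 58.1% from D15 and 30.4% from D30, which is 38.2%, 42.4% and 47.1% of the rises of those ages. For genes that fell from D4 the shares were 19.6%, 51.5% and 28%, and of the other ages' falls 21%, 39.3% and 38.5%. Over all genes tested in both, 23.8% rose from D1, 31.6% from D15 and 14.8% from D30, and 20.7%, 29.6% and 16.4% fell. Of the D4 falls, 506 (19.6%) fell from D1 and 615 (23.9%) rose. Both shares were thus close to those over all genes, 20.7% and 23.8%. From D15 and D30 13.2% and 6.59% of D4 falls rose. Of the D4 rises 24.6% fell from D1, 16.65% from D15 and 12.62% from D30. A test of the difference itself, in a fit of all 24 libraries, found a different response from D4 than from D1 in 6236 of 14562 genes (42.8%), than from D15 in 5122 (35.2%) and than from D30 in 4502 (30.9%). Of these, 3220, 2546 and 2345 changed more upward from D4, and 3016, 2576 and 2157 less. These counts of 14562 are the background for the list differences below.

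**Figure D4:**
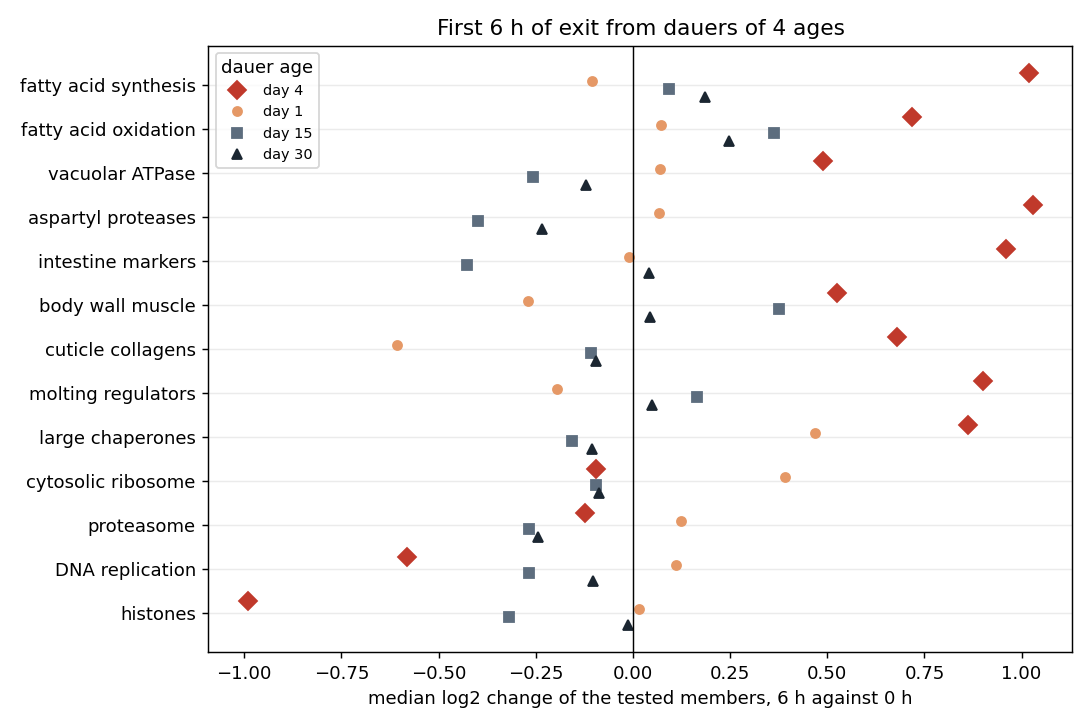
Median log2 change, 6 h against 0 h, of members of 13 gene lists in dauers of day 4 (red diamonds), day 1, day 15 and day 30. Only members tested in D4 are included at the other ages. For collagens these were 94 of the 150 tested from D1, 38 of 48 from D15 and 31 of 46 from D30. The day 4 median lies furthest right for fatty acid synthesis, at 1.02, and for the other lists down to large chaperones, and furthest left for DNA replication and histones, at -0.58 and -0.99.

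The list counts and medians for other ages, and for differences between ages, cover only members that were also tested in D4. Members with counts mainly at another age are thus left out. Fatty acid synthesis differed from that of each other age. Of its 22 genes, 18 changed more upward from D4 than from D1 and 1 less, 18 and 0 against D15, and 15 and 0 against D30, and its medians were 1.02 from D4, -0.1 from D1, 0.093 from D15 and 0.19 from D30. For fat-6 the difference was 2.38 on the log2 scale with adjusted p = 1.08e-15 against D1, 1.98 on the log2 scale with adjusted p = 2.45e-14 against D15 and 2.31 on the log2 scale with adjusted p = 1.52e-15 against D30. Its mean level was 687 ± 34.1 CPM at 6 h and 145 ± 21.9 CPM at 0 h in D4 (SD), 154 ± 4.63 and 169 ± 20.1 CPM in D1, 483 ± 28.7 and 398 ± 20.3 CPM in D15, and 1396 ± 135 and 1455 ± 41.8 CPM in D30. Vacuolar ATPase genes differed in the same direction in 17, 19 and 18 of 21 against D1, D15 and D30, and in the opposite one in 2 each time. Body wall muscle genes changed more upward from D4 in 23 of 27 against D1, 10 against D15 and 18 against D30.

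Molting regulators changed more upward from D4 in 15 of 20 against D1, in 13 against D15 and in 9 against D30. The ages started from unequal levels. ptr-4 had 75.2 ± 22.8 CPM at 6 h and 4.87 ± 2.3 CPM at 0 h in D4, against 0.744 ± 0.14 and 2.73 ± 0.78 CPM in D15 (difference 5.76 on the log2 scale with adjusted p = 5.25e-10). In D1 it had 174 ± 7.37 and 191 ± 11.2 CPM, so that it was already high at 0 h. col-43 had 35.4 ± 11.3 and 1.13 ± 0.852 CPM in D4, against 1289 ± 80.8 and 3173 ± 270.5 CPM in D1 (difference 6.45 on the log2 scale with adjusted p = 9.12e-15, and 5.77 without replicate 3 of D4 0 h). Its D1 dauers thus held far more of this collagen at either time than D4 larvae did. Of the 99 collagens, 55 changed more upward from D4 than from D1 and 15 less. daf-9 had 54.5 ± 3.56 and 12.61 ± 3.02 CPM in D4, against 10.4 ± 0.541 and 4.52 ± 0.486 CPM in D1, 3.67 ± 0.519 and 3.93 ± 0.74 CPM in D15, and 3.36 ± 0.0305 and 1.31 ± 0.0542 CPM in D30. The difference was 0.91 on the log2 scale with adjusted p = 0.00102 against D1, 2.21 on the log2 scale with adjusted p = 1.23e-08 against D15 and 0.78 on the log2 scale with adjusted p = 0.0553 against D30, of which the last did not pass the test.

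fmo-2 rose from D4, D15 and D30 and did not reach the count minimum in D1. It had 131 ± 33.5 CPM at 6 h and 0.585 ± 0.264 CPM at 0 h in D4, against 219 ± 45 and 1.84 ± 0.683 CPM in D15, 0.632 ± 0.159 and 0.154 ± 0.17 CPM in D1 and 1.79 ± 0.546 and 0.254 ± 0.262 CPM in D30. The difference was 6.12 on the log2 scale with adjusted p = 0.0182 against D1, 0.97 on the log2 scale with adjusted p = 0.377 against D15 and 4.96 on the log2 scale with adjusted p = 0.0197 against D30, so that D4 and D15 were not told apart by the test. In the other direction, cytosolic ribosomal protein genes changed less from D4 than from D1 in 79 of 80, and 79 of them rose from D1 (median 0.39) and 2 from D4, or 0 from D4 by DESeq2 and in 4 of the 6 fits with 1 library left out. DNA replication genes changed less upward, or further down, from D4 than from D1 in 27 of 33, than from D15 in 9 and than from D30 in 24. Histones did so in 22, 17 and 16 of 35. The falls of these 2 lists stand beside the higher germline, replication and yolk sums of the D4 0 h libraries given above, and the part of those sums in the differences was not tested.

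The levels at 24 h of exit and in L3 larvae were set beside the first 6 h without a test, because such contrasts would share libraries with the one above. The 3 times and L3 divided the genes into several patterns. fmo-2 was highest at 6 h, with means of 0.585 ± 0.264 CPM at 0 h, 131 ± 33.5 CPM at 6 h, 34.9 ± 2.87 CPM at 24 h and 1.65 ± 0.55 CPM in L3 (SD, n = 3 each). act-5 was level between 6 and 24 h, with 235.0 ± 11.8, 889 ± 37 and 878 ± 42 CPM at 0, 6 and 24 h and 1766 ± 61.8 CPM in L3. mlt-11 had 10.7 ± 1.74, 79.5 ± 26.2 and 731 ± 55.6 CPM at 0, 6 and 24 h and 1149 ± 531 CPM in L3. By 6 h it was well above the dauer level and far below the later ones. noah-1 had the same order, with 14.5 ± 2.08, 188 ± 46.7 and 806 ± 45.4 CPM and 1331 ± 578 CPM in L3. hsp-12.6 was lower at each later time, at 686 ± 26.1, 128 ± 8.86 and 24.3 ± 4.67 CPM, and 0.0723 ± 0.0632 CPM in L3. The collagen col-36 was high at 6 h alone, with 1.94 ± 1.27, 44.4 ± 4.27 and 1.76 ± 1.5 CPM and 0.25 ± 0.259 CPM in L3, where 0 and 24 h did not differ beyond their spread.

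**Figure D5:**
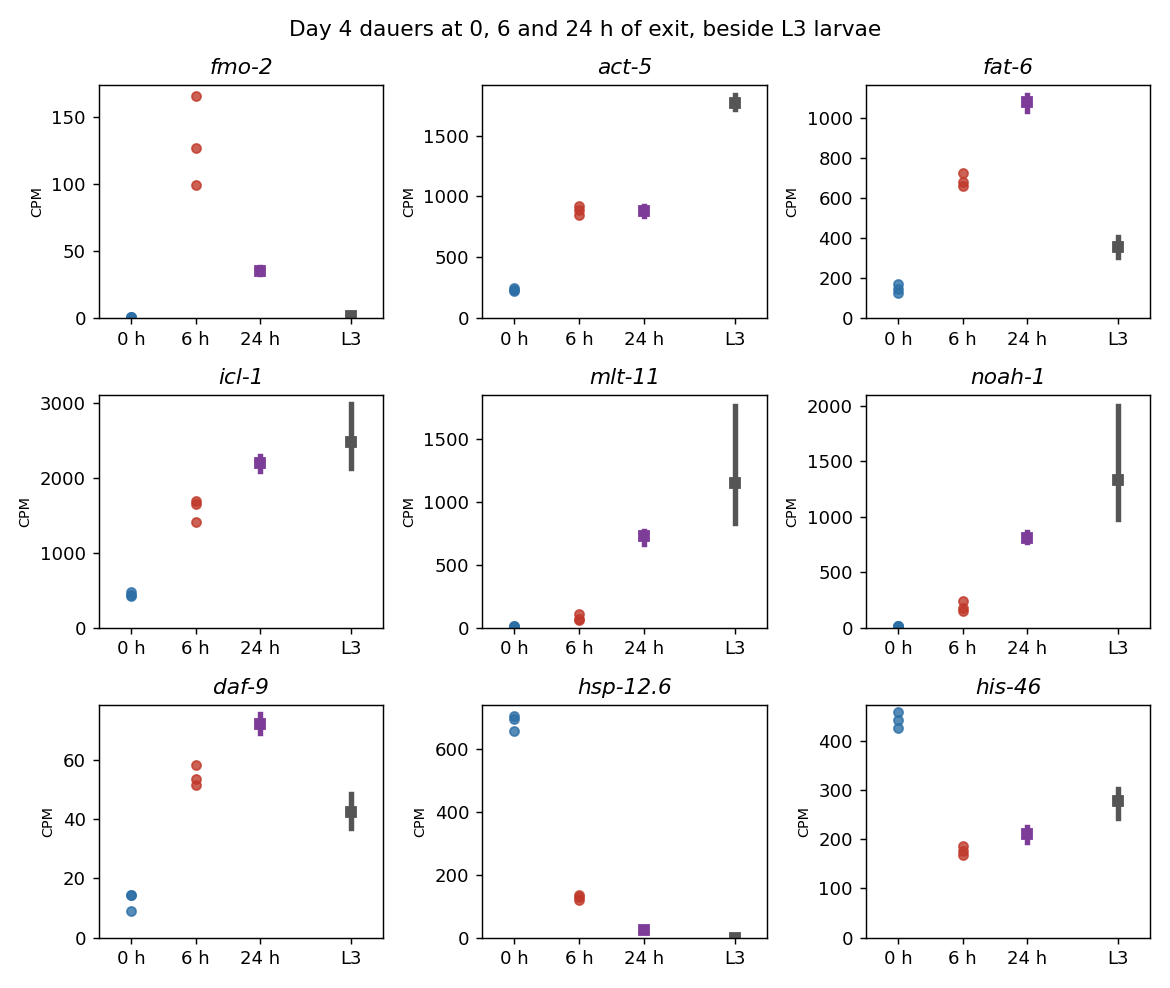
CPM of 9 genes in D4 dauers at 0, 6 and 24 h of exit and in L3 larvae, with points for the 3 libraries at 0 and 6 h, and squares for the mean with bars for the range of the 3 libraries at 24 h and in L3. fmo-2 peaks at 6 h, mlt-11 and noah-1 are highest in L3, hsp-12.6 is highest at 0 h, and his-46 is lower at 6 h than at 0 h and remains below it at 24 h.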

How the data were processed

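RNA was sequenced from pools of whole worms. The authors trimmed reads with fastp, quantified them with Salmon (transcripts of WBPS15, genome sequence as decoy), and deposited 1 table of estimated counts per gene for 54 libraries, not scaled for library size. These values were rounded to whole numbers. All columns matched a sample label. Gene positions came from Ensembl WBcel235, matched by identifier.

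A gene entered the test if 3 or more of the 6 libraries held 10 or more counts. The test was edgeR's quasi-likelihood one (glmQLFit, then glmQLFTest; edgeR 4.0.16, limma 3.58.1, R 4.3.3), two-sided, with TMM scaling and Benjamini-Hochberg adjustment over all genes tested, at a threshold of 0.05. Other dauer ages and UV were fitted separately in the same way, and differences between ages as interaction contrasts over 24 libraries. The list counts and medians of these fits cover only members also tested in D4 without UV. CPM used TMM factors of the 39 libraries without UV, and list sums the plain library totals. DESeq2 1.42.0 was an alternative. The edgeR steps were tested on simulated data. For D4 6 h against 0 h they recovered 34 of 67 changes of 1.5-fold (50.7%) and 58 of 67 of 2-fold (86.6%). All 66 changes of 4-fold were recovered, and 21 calls were false. False calls numbered 8 for D4 minus D15 and 9 for D4 with UV. There, 46.3% and 22.4% of the 1.5-fold changes were recovered, so many changes of that size could be missed. Figures used Python 3.11.15 and matplotlib 3.10.9.

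The comparison and the gene lists were chosen with earlier results of these data known, so lists are described by counts and medians. Named genes were 17 dauer and repair genes, up to 12 rises and 12 falls by size (called, with a symbol, a mean of at least 50 counts and no overlap), up to 4 list members with the smallest p in the main direction and 2 in the other, up to 5 genes each way per difference between ages, and up to 8 of highest CPM per time.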

Additional observations from a re-analysis of the deposited data

Results flagged for a closer look

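The response over the first 6 h differed between D4 and other dauer ages in many genes. By the test of the difference itself it differed from D1 in 6236 genes, from D15 in 5122 and from D30 in 4502, of 14562 tested. Up to 5 genes each way per age were taken among those with a mean of at least 50 counts. Genes with 3 or fewer counts in any of the 4 groups compared were then left out. Larger differences were lost in this way, such as col-163 (7.72 against D1), lact-3 (10.8 against D15) and col-3 (-8.7 against D30). Among the genes kept, the log2 differences of D4 minus D1 were largest for the collagens col-43 (6.45) and col-84 (6.3) and for fmo-2 (6.12). They were most negative for the chitinase-like chil-15 (-5.59) and chil-17 (-4.95), the collagens col-178 (-5.32) and col-140 (-4.54) and the acyltransferase-like oac-55 (-3.84). Against D15 the difference was 5.76 for ptr-4, and -6.74 for vit-5, -5.95 for col-178, -5.74 for vit-6, -5.73 for nhr-246 and -5.66 for vit-2. Against D30 it was -5 for col-178, -4.13 for col-140, -4.02 for cyp-14A1 and -3.92 for nhr-246, and the genes with a positive difference were all left out.

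Single D4 libraries moved several of these differences. Without replicate 3 of 0 h, D4 minus D1 was 5.77 for col-43 and 7.62 for col-84, so that their order turned round. Without replicate 2 of 6 h, D4 minus D15 was -13 for vit-5, -15.6 for vit-6 and -15.8 for vit-2, and without replicate 3 of 0 h it was -5.91, -4.79 and -4.75. Without replicate 1 or 3 of 6 h the 3 lay between -6.15 and -5.04. Yolk genes summed to 0.373, 168 and 0.366 CPM at 6 h and 758, 562 and 2278 CPM at 0 h in D4, against 116, 9.33 and 2.43 CPM at 6 h and 11.1, 16 and 14.4 CPM at 0 h in D15, so that 1 library of each age held most of the 6 h counts. Without replicate 2 of 6 h, col-178 was at -6.35, -6.98 and -6.03 against D1, D15 and D30, and col-140 at -5.58 against D1 and -5.18 against D30. The call of col-178 against D30 was lost without replicate 1 of 6 h (adjusted p = 0.0527).

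Over all 14562 genes, 3220, 2546 and 2345 changed more upward from D4 than from D1, D15 and D30, and 3016, 2576 and 2157 less. By list, against D1 more upward changes were found for 18 of 22 fatty acid synthesis genes, 15 of 20 molting regulators, 24 of 39 hedgehog-related genes, 17 of 21 vacuolar ATPase genes and 23 of 27 body wall muscle genes. Changes in the other direction against D1 were found for 79 of 80 cytosolic ribosomal protein genes, 19 of 31 ribosome assembly genes, 27 of 33 DNA replication genes, 15 of 21 cell cycle genes and 22 of 35 histones. Against D15, 18 fatty acid synthesis, 15 of 24 1-carbon, 13 molting and 19 vacuolar ATPase genes changed more upward. Against D30, 19 of 28 TCA and glyoxylate cycle genes, 15 fatty acid synthesis, 18 vacuolar ATPase and 18 muscle genes did so, and 24 DNA replication genes changed in the other direction.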

How the results depend on the processing

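The count of 5520 called genes was 5539 with the size factors of DESeq2 (RLE), 6162 of 18264 without a filter, 5493 with filterByExpr, 4080 with DESeq2, 6602 in a fit of 39 libraries and 3885 at an adjusted p under 0.01, where 1710 fell. A change of at least 2-fold was met by 1680, of which 1081 rose and 599 fell. With the replicate number as a block 5136 were called, but same-numbered libraries did not deviate together (correlations 0.0013, -0.066 and -0.14), so the numbers were not taken as pairs. With the same block, 6166, 5029 and 4411 genes differed from D1, D15 and D30. Leaving out 1 library gave 4707 to 4853 calls (2450 to 2553 higher, 2160 to 2359 lower). Without a 0 h library only 11210 to 11290 genes reached the count minimum, so genes found mainly at 0 h could drop out untested. 4292 were called without both libraries with the most yolk counts, an alternative chosen after the data were seen. No gene was called in opposite directions in any of these settings. For the other ages, left-out libraries gave 5200 to 5533 calls in D1, 6422 to 6978 in D15, 2553 to 4526 in D30 and 792 to 1633 in D4 with UV, where DESeq2 gave 856, and 5739 to 5971, 4635 to 4903 and 3981 to 4282 differences from D1, D15 and D30. Most chemoreceptors did not reach the count minimum at any age. Of 1300, 57 reached it in D4, 127 in D1, 252 in D15 and 255 in D30, and the part of depth in this was not tested.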
